A study of Mus musculus with 2 samples.

Results

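Chemokines are small secreted proteins that draw white blood cells out of the blood and into tissue. The set described here holds 10 mouse chemokine genes that are widely studied in inflamed diabetic kidney, namely Ccl2, Ccl3, Ccl4, Ccl5, Ccl7, Ccl8, Cxcl1, Cxcl9, Cxcl10 and Cx3cl1. They were found by the accession of each array probe, and 11 of the 39426 gene probes belong to them. The probes of the whole array cover 20017 named genes.

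The class names of chemokines follow the spacing of the first cysteines of the protein: they are adjacent in the CC class, have a residue between them in the CXC class and are further apart in Cx3cl1. CC chemokines such as Ccl2 act mainly on monocytes and T cells, Cxcl1 acts on neutrophils, and Cxcl9 and Cxcl10 act on activated T cells and natural killer cells. In diabetic kidney disease, chemokines made by tubule cells, glomerular cells and resident leukocytes are known for bringing macrophages into the tissue, and Ccl2 is the best studied of them.

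Labelled RNA came from micro-dissected glomerular regions of the kidneys of male mice on a C57BL/6J background. The TG+STZ mice are labelled Sirt1-overexpressing transgenic, and the WT+STZ mice are wild type. When 8 weeks old, mice of both groups received streptozotocin (STZ), which kills insulin-producing cells, and both groups were 32 weeks old at death. Each group had 1 array, and the promoter that drives the transgene and the number of mice behind an array are not given in the sources used here. No array of mice without STZ was analysed here, so every value below is from STZ-treated mice.

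Because a group is 1 array, the differences below are descriptions of these arrays, and no test between groups could be made. Of 43020 gene spots per array, 76.3% were well above background in TG+STZ and 75.04% in WT+STZ. Differences are log2 values, TG+STZ minus WT+STZ, after the signal of each array was divided by its 75th percentile. The error after ± is the scanner software's own error for single spots, combined over both arrays. For a gene with several probes it is the error of their mean, and leaves out the spread between those probes. This error covers neither the spread between mice nor that between hybridisations. Over the 15971 genes measured well above background on both arrays, the median difference was 0.003 and the middle 95% lay between -0.52 and 0.49. Sirt1 stood at 2977 intensity units in TG+STZ and 2625 in WT+STZ, a difference of 0.10 ± 0.20 from 1 probe. Whether that probe reads the transgene was not tested. RNA of a whole tissue region was measured, so fewer cells of a type and less RNA per cell cannot be told apart.

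All 10 chemokine genes were detected. Each of the 11 probes was well above background on both arrays and none was saturated. Ccl7 and Ccl3 lay nearest to background. The Ccl7 spot had a raw spot median 2.07 times its local background in TG+STZ and 1.79 times in WT+STZ. The Ccl3 spot had a raw median 2.29 times its local background in TG+STZ and 3.0 times in WT+STZ. At the other end, the Cx3cl1 probe was brighter than 89.98% of gene spots in TG+STZ and 90.2% in WT+STZ. Brightness also depends on how well a probe binds, so the order of probes is not an order of transcript levels. Ranked by signal among the measured genes, 4 of the 10 chemokines (Ccl3, Ccl4, Ccl7 and Cxcl1) lay in the dimmest 25%.

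**Figure D1:**
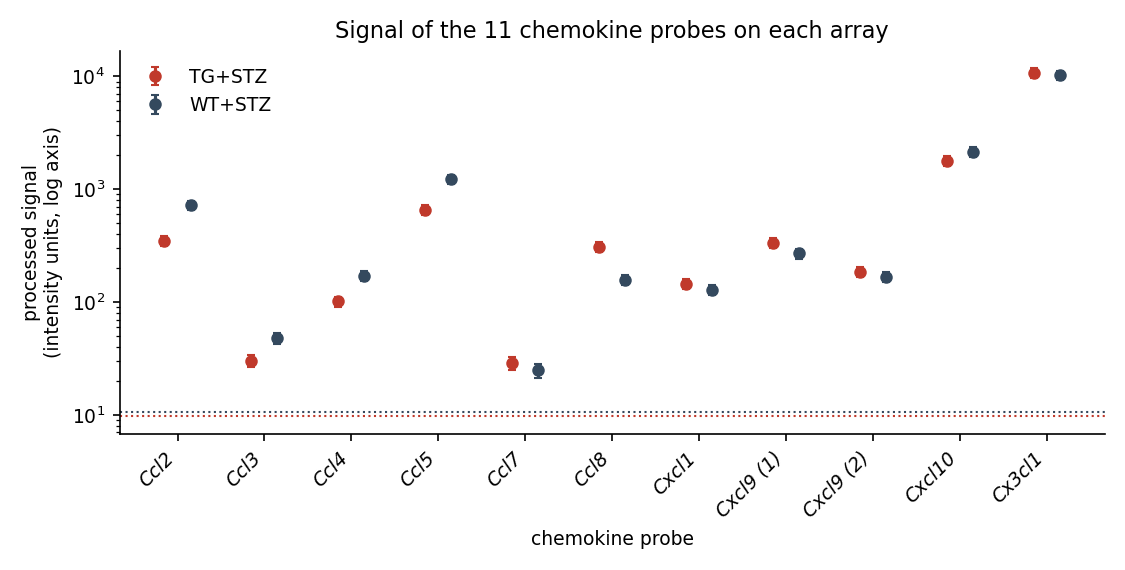
Processed signal of each chemokine probe (intensity units, log axis) on the TG+STZ array (red, left of each pair) and the WT+STZ array (dark blue, right), with the scanner software's error as bars. Dotted lines mark the lowest signal counted as well above background on each array (9.70 units in TG+STZ, 10.6 in WT+STZ), and all 11 probes lie above them.

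Ccl2, Ccl5, Ccl4 and Ccl3 were lower on the TG+STZ array by 0.74 to 1.12 on the log2 scale, and Ccl8 was higher by 0.90. Ccl7, Cxcl1, Cxcl9 and Cx3cl1 lay between -0.0083 and 0.15, and Cxcl10 lay at -0.34. Past 2-fold there was 1 of the 10 genes, Ccl2, against 0.989% of all measured genes past it, 0.47% lower and 0.52% higher. Just short of 2-fold stood Ccl5 at -0.98. Past 1.5-fold there were 5 of the 10, 4 lower and 1 higher, against 3.66% of all measured genes past it, 1.91% lower and 1.75% higher, or 8.11% of those in the dimmest 25% by signal. The same 5 genes lay more than 2 software errors from 0, as did 7.5% of all measured genes.

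The median of the 10 genes was -0.17, with 6 lower and 4 higher, against 49.1% of all measured genes lower. It falls in a gap between Cx3cl1 and Cxcl10, so it describes the set poorly. It was -0.0083 without any one of Ccl2, Ccl3, Ccl4, Ccl5 or Cxcl10, and -0.34 without any one of the other 5 genes. Among the 10 genes, the CC class held all of the differences past 1.5-fold. Its median was -0.79 over 6 genes, with 4 lower and 2 higher (Ccl7 and Ccl8), so it does not describe the class as a whole.

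**Figure D2:**
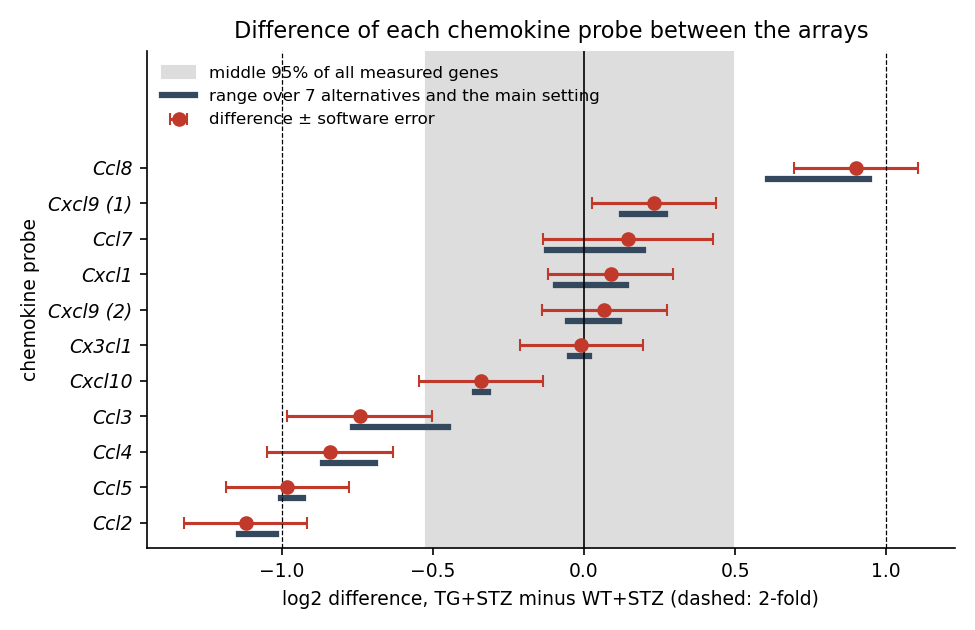
Log2 difference of each chemokine probe, TG+STZ minus WT+STZ, with the scanner software's error (red points and bars) and the range over this value and 7 other scalings or backgrounds (dark bars below each point). The grey band holds the middle 95% of all measured genes (-0.52 to 0.49), and Ccl2, Ccl5, Ccl4 and Ccl3 lie below it and Ccl8 above it.

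Ccl2 attracts monocytes through the receptor Ccr2. Its probe was spotted 10 times across each array, so its signal is the most often read of the set. All 10 spots hold the same probe, so they do not check it against another probe of the gene. The spots ranged from 321 to 373 intensity units with a median of 353 in TG+STZ, and from 669 to 777 units with a median of 721 in WT+STZ. Every TG+STZ spot was dimmer than every WT+STZ spot. On the log2 scale the difference was -1.12, or 2.17-fold lower in TG+STZ, and it ran from -1.17 to -1.05 over the 10 spot positions with an SD of 0.05. That SD is the spread of spots within an array and carries no information on mice. Of the 245 probes that were spotted 10 times and measured on both arrays, 1 had a lower difference than Ccl2. Of all 15971 measured genes, 51 did.

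**Figure D3:**
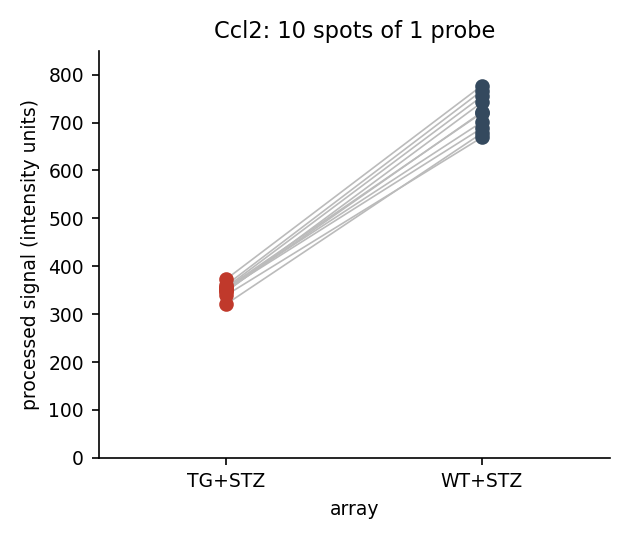
Processed signal (intensity units) of the 10 spots of the Ccl2 probe on the TG+STZ array (left) and the WT+STZ array (right), with a line joining the spots at the same position. The TG+STZ spots lie between 321 and 373 units and the WT+STZ spots between 669 and 777, with no overlap.

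Ccl7, a further ligand of Ccr2 and of Ccr1 and Ccr3, read 29.1 intensity units in TG+STZ and 24.9 in WT+STZ. Its difference of 0.14 ± 0.28 was smaller than the software's error, and it was -0.12 under normexp, another background correction. Ccl8 is a CC chemokine that in the mouse acts through Ccr8. It read 311 units in TG+STZ and 158 in WT+STZ, 1.87-fold higher in TG+STZ (log2 0.90 ± 0.21). Of the 15971 measured genes, 114 had a higher difference. The Ccl8 value came from 1 spot per array, and it was 0.61 under normexp. Ccr8 itself was at -0.01 ± 0.22, or -0.19 under normexp.

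Ccl3, Ccl4 and Ccl5 are made in quantity by activated T cells, natural killer cells and macrophages. All of them were dimmer in TG+STZ. Ccl5 read 656 intensity units in TG+STZ and 1226 in WT+STZ, a log2 difference of -0.98 ± 0.20. Ccl4 read 101 units in TG+STZ and 172 in WT+STZ, a difference of -0.84 ± 0.21. Ccl3 read 30.2 units in TG+STZ and 47.8 in WT+STZ, a difference of -0.74 ± 0.24. Each gap is between 3 and 5 times the software's error, and each rests on 1 spot per array. Ccl3 is the dimmest of them and stood at -0.45 under normexp, while Ccl4 stood at -0.69 and Ccl5 kept at least -0.93 under every alternative scaling run.

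Genes for CC chemokines lie side by side on mouse chromosome 11 in 2 groups. In the order of the RefSeq gene table, the second group runs Ccl5, Ccl9, Ccl6, Ccl3 and Ccl4, with no other protein-coding gene between them. All 5 were lower in TG+STZ, by 0.48 to 0.98. Ccl9 and Ccl6, macrophage chemokines that mice have and humans lack, were at -0.55 ± 0.21 and -0.48 ± 0.20. Of the 3 protein-coding genes before the group, Taf15, an RNA-binding protein gene, was measured, at -0.01 ± 0.20. Of the 3 after it, Wfdc17 and Wfdc18, which encode small secreted proteins of the whey acidic protein family, were measured. Wfdc17 read 322 units in TG+STZ and 607 in WT+STZ, a difference of -0.99 ± 0.20. Wfdc18 was dim, at 16.4 units in TG+STZ and 31.5 in WT+STZ, a difference of -1.02 ± 0.29 that was -0.43 under normexp. So 7 neighbouring measured genes were lower, and the genes beyond the chemokines were read only because of their position.

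The first group, Ccl2, Ccl7, Ccl11, Ccl12, Ccl8 and Ccl1, did not go one way. Ccl2 and Ccl12, a close relative of Ccl2 and also a Ccr2 ligand, were lower at -1.12 and -0.37 ± 0.21. Ccl11, which draws eosinophils, read 32.8 units in TG+STZ and 12.7 in WT+STZ, at 1.29 ± 0.33, and was 0.09 under normexp. Ccl1 was well above background in TG+STZ alone, at 11.9 units against 6.63 in WT+STZ. The 4 measured genes out of 6 that flank this group lay between 0.09 and 0.48.

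**Figure D4:**
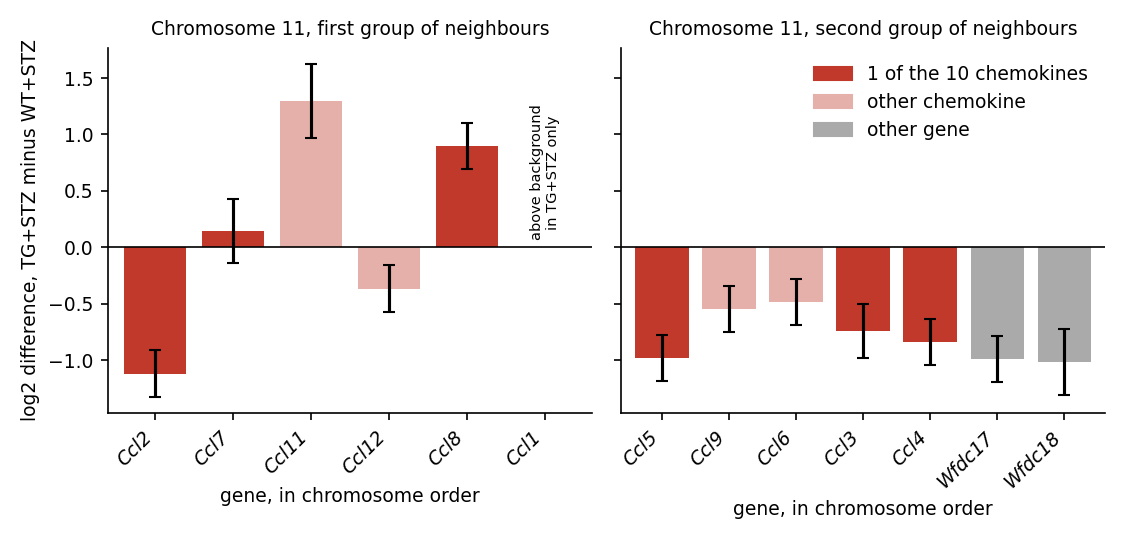
Log2 difference, TG+STZ minus WT+STZ, of neighbouring chemokine genes on chromosome 11 in gene order, with the scanner software's error as bars. In the group on the left the signs are mixed (-1.12 to 1.29), and in the group on the right all 5 chemokines (-0.98 to -0.48) and the 2 measured genes after them (grey) are lower.

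The CXC chemokines among the 10 genes differed less than 1.5-fold. Cxcl1, which attracts neutrophils through Cxcr2, read 144 intensity units in TG+STZ and 129 in WT+STZ, a difference of 0.09 ± 0.21 that was -0.09 under normexp. Cxcl9 and Cxcl10 are induced by interferon gamma and act through Cxcr3. The probes of Cxcl9 read 335 and 185 units in TG+STZ, against 270 and 167 in WT+STZ, and their differences were 0.23 ± 0.20 and 0.07 ± 0.21. Cxcl10 read 1789 units in TG+STZ and 2145 in WT+STZ, a difference of -0.34 ± 0.20. It stayed between -0.36 and -0.32 under every alternative scaling run. These 2 ligands of 1 receptor therefore lay on opposite sides of 0, each by less than 2 software errors.

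RefSeq promoters, 250 bases before to 50 after the start site, were on hand for 6 of the 10 genes (build GRCm38.p6). The 5 printed are those of Cxcl10 and Cxcl1, which hold exact NF-kB matches, and of Cxcl9, Ccl8 and Ccl3, which hold none. The promoter of Cx3cl1, not printed, holds TATAAA alone, 6 bases before the start site. Both strands were searched for the NF-kB consensus, the interferon-stimulated response element (GAAA, any 2 bases, GAAA), the interferon gamma-activated site (TTC, any 3 bases, GAA) and the TATA box TATAAA. Capitals mark every match, and overlapping matches are merged.
Cxcl10 (chr5:92348840-92349139, minus strand): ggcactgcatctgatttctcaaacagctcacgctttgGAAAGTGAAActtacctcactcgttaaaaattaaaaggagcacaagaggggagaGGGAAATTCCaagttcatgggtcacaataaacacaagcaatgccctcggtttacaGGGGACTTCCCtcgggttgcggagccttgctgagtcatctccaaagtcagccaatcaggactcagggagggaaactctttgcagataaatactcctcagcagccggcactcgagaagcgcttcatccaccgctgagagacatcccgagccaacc
Cxcl9 (chr5:92328030-92328329, minus strand): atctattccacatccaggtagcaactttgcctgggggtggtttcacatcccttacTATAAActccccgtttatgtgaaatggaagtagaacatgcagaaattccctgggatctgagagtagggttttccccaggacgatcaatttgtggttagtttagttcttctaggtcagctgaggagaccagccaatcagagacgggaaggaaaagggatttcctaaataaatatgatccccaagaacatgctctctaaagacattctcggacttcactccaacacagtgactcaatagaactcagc
Cxcl1 (chr5:90890995-90891294, plus strand): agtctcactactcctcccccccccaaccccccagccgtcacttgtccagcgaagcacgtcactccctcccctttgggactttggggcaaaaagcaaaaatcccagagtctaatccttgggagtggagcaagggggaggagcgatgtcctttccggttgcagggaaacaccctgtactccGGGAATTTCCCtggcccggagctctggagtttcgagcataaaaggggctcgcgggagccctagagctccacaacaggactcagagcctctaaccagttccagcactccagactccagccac
Ccl8 (chr11:82114935-82115234, plus strand): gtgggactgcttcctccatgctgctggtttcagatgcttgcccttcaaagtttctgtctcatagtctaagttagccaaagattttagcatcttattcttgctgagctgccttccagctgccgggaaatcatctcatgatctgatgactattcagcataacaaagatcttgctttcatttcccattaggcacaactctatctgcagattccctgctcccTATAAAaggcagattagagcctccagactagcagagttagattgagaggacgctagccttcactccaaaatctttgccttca
Ccl3 (chr11:83649329-83649628, minus strand): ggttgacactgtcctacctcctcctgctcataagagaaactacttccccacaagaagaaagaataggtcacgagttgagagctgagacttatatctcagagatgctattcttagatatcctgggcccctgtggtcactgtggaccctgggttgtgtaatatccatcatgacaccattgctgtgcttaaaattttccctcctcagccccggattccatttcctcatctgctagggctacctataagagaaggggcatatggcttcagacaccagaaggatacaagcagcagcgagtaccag
Cxcl10 holds an interferon-stimulated response element that begins 213 bases before the start site, as do 3.44% of all 32851 promoters in the table. It also holds NF-kB matches that begin 159, 104 and 103 bases before the start, the last 2 overlapping. Cxcl1 holds NF-kB matches that begin 71 and 70 bases before the start, again overlapping. Of all promoters, 8.46% hold the NF-kB consensus. Ccl8 has a TATA box 32 bases before the start and Cxcl9 has those letters at 195 bases, and 13.6% of promoters hold them. The interferon gamma-activated site, present in 8.3% of promoters, is in none of the 5 windows. The matches are letters in these windows and not measured binding.

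Cx3cl1, or fractalkine, is held on the cell surface, in the kidney mainly on endothelium and tubule cells, and is cut free by the proteases Adam10 and Adam17. It read 10765 intensity units in TG+STZ and 10252 in WT+STZ, a scaled difference of -0.0083 ± 0.20. Over all alternative scalings run it stayed between -0.05 and 0.02. Adam10 was at 0.12 ± 0.20 and Adam17 at -0.29 ± 0.15. The receptor Cx3cr1, found on monocytes and macrophages, was at -0.24 ± 0.14, with probes at -0.39 and -0.09.

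Of 22 chemokine receptor genes, 16 were measured on both arrays, of which 11 were lower and 5 higher, with a median of -0.12. None passed 2-fold. Ccr2, the receptor of Ccl2, read 275 units in TG+STZ and 314 in WT+STZ, a difference of -0.27 ± 0.20. Cxcr3 was at -0.29 ± 0.21 and Ccr3 at -0.51 ± 0.22. Ackr1, a receptor on blood vessels that binds many chemokines without signalling, was at -0.24 ± 0.33. Ccr1 and Cxcr2 were not well above background on either array.

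Ackr3, which scavenges Cxcl12, stood furthest from 0 among the receptors. It read 4855 units in TG+STZ and 7696 in WT+STZ, a difference of -0.74 ± 0.20. Its ligand gene Cxcl12 was at 0.23 ± 0.14. Ccr10, the receptor of Ccl28 and Ccl27a, was at 0.37 ± 0.22, or 0.03 under normexp, and Ccr6 was at -0.33 ± 0.22.

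Beyond the 10 genes, 18 of 27 other chemokines were measured on both arrays, with a median of -0.12. Of these 11 were lower and 7 higher, against 49.1% of all measured genes lower. Ccl25, counted as lower at -0.48, had probes on opposite sides of 0, at -1.69 and 0.72. Past 2-fold there were 3 of them, against 0.989% of all measured genes. Ccl28, a chemokine of mucosal surfaces that attracts antibody-secreting cells, read 1567 units in TG+STZ and 266 in WT+STZ, 5.57-fold higher in TG+STZ (log2 2.48 ± 0.20). Cxcl13, which attracts B cells, read 30.5 units in TG+STZ and 96.1 in WT+STZ, a difference of -1.74 ± 0.24, or -0.94 under normexp. The third was Ccl11, given above, and only Ccl28 stayed past 2-fold under normexp, at 2.12. Cxcl5, a neutrophil chemokine like Cxcl1, was well above background in WT+STZ alone, at 1.94 units in TG+STZ against 22.1 in WT+STZ. By the bound it was at least 2.4-fold lower in TG+STZ. It was dim in WT+STZ too, where the lowest signal counted as detected was 10.6 units, and its bound was not recomputed under normexp.

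**Figure D5:**
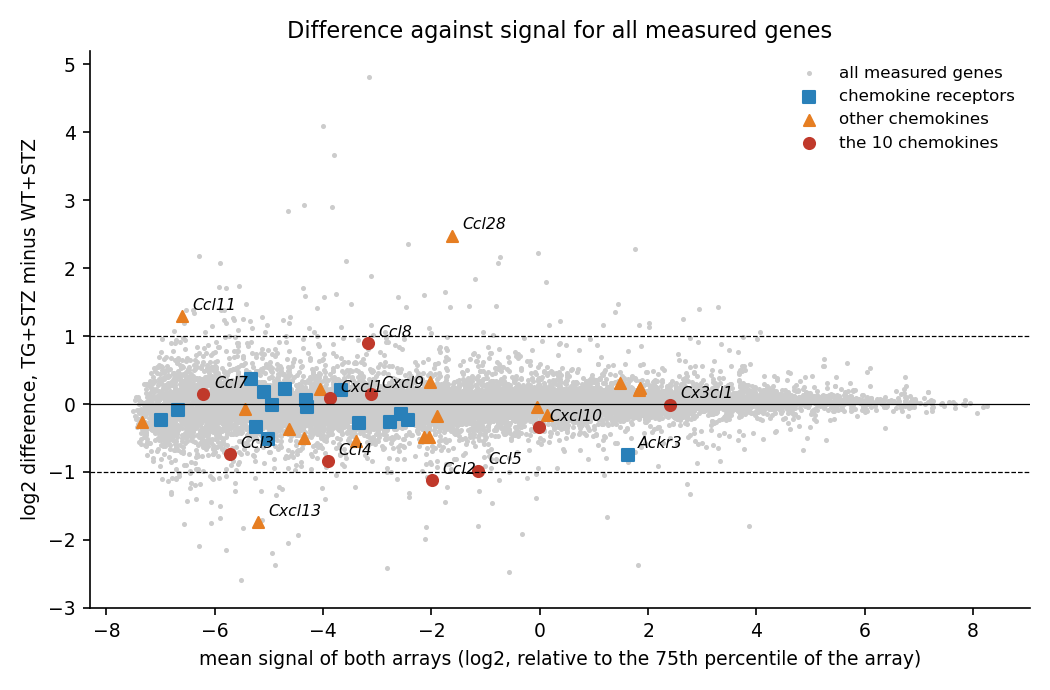
Log2 difference, TG+STZ minus WT+STZ, against mean signal of both arrays (log2, relative to the 75th percentile of each array) for all 15971 measured genes (grey), with the 10 chemokines (red), other chemokines (orange) and chemokine receptors (blue). Grey points spread more widely at low signal, where Ccl11 and Cxcl13 lie, and Ccl2 and Ccl5 lie near -1 at higher signal.

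Il1b and Tnf, cytokines that induce many chemokines, were lower. The 26 listed genes covered inducing cytokines, receptors, NF-kB subunits, regulators and inhibitors, and adhesion molecules. Of these, 22 were measured, with 16 lower, 6 higher and a median of -0.06. Il1b, made by activated macrophages, read 123 units in TG+STZ and 196 in WT+STZ, a difference of -0.75 ± 0.21. Tnf, with a similar role, was dim and at -0.55 ± 0.26. Nfkbia read 10333 units in TG+STZ and 7000 in WT+STZ, a difference of 0.48 ± 0.20. Nfkbib was at 0.39 ± 0.12 from 3 probes between 0.03 and 1.09, and at 0.19 under normexp. Both encode inhibitors of NF-kB, and neither passed 1.5-fold. The inhibitor genes Nfkbie and Tnfaip3 lay at -0.006 and -0.09. The NF-kB subunit genes Nfkb1 and Nfkb2 lay at -0.08 ± 0.14 and -0.06 ± 0.20, and Rela at 0.03 ± 0.20, which was as low as -0.01 under other scalings. Icam1 and Vcam1, adhesion molecules that hold leukocytes to the vessel wall, were at -0.38 ± 0.21 and -0.36 ± 0.15. Il6 and Il1a were not well above background on either array.

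Interferon gamma signalling, which induces Cxcl9 and Cxcl10, was measured for all 19 listed genes. Of these 12 were lower and 7 higher, and the median of -0.02 was above 0 under some scalings, reaching 0.004. Ifng itself was dim and at -0.10 ± 0.26. Furthest from 0 were Gbp3, an interferon-induced GTPase gene, at -0.37 ± 0.20, the receptor gene Ifngr1 at -0.31 ± 0.20, Ciita, which switches on class II antigen presentation, at 0.29 ± 0.22 (0.02 under normexp), and Gbp7 at -0.28 ± 0.20.

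White blood cell markers were lower together with Ccl2, Ccl3, Ccl4 and Ccl5. Over 4 leukocyte lists, 25 of 27 measured markers were lower and 2 higher, against 49.1% of all measured genes lower. The markers' median was -0.34, and their part in the chemokine values was not tested. Among the lower markers, Itgam, Cd14, Fcgr1, Aif1, Cd3e, Cd4, Cd79a and Csf3r lay within their software error of 0. The signs of Fcgr1, Cd79a and Klrb1c did not hold under every alternative scaling run. T and natural killer cell markers had 10 of 11 lower and a median of -0.36, and their summed signal, relative to the 75th percentile of the array, was 1.49 in TG+STZ and 1.79 in WT+STZ. The cytotoxic gene Gzmb stood at -1.76 ± 0.28, Cd8b1 at -1.18 ± 0.27 and Cd8a at -0.66 ± 0.20. These are dim probes, and under normexp they stood at -0.82, -0.54 and -0.39. Monocyte and macrophage markers had 7 of 8 lower with a smaller median of -0.11, and a summed signal of 3.31 in TG+STZ and 3.63 in WT+STZ. Lyz2, a lysozyme gene, stood at -0.50 ± 0.20 and Mrc1, of tissue-resident macrophages, at 0.36 ± 0.21. Neutrophil markers had a median of -0.63 with 4 of 4 lower. S100a9, S100a8 and Mpo stood at -0.76 ± 0.20, -0.64 ± 0.21 and -0.62 ± 0.21, and Csf3r at -0.11 ± 0.20. The Csf3r probe was by far the brightest of these, at 125418 units in TG+STZ and 128335 in WT+STZ. B cell markers had a median of -0.47 with 4 of 4 lower. Ncr1, of natural killer cells, was well above background in TG+STZ alone, at least 1.05-fold higher there. Cd68, Ly6c2, Trac and Ly6g had no named probe.

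All 6 podocyte markers, which define the glomerulus, were detected, with a median of -0.14 and a summed signal of 8.27 in TG+STZ and 10.71 in WT+STZ. Nphs1, of the podocyte filtration slit, stood at -0.89 ± 0.20. All 5 proximal tubule markers were detected as well, 4 of them lower and Slc22a6 higher at 0.26 ± 0.20, with a summed signal of 284 in TG+STZ and 275 in WT+STZ. Endothelial markers had a median of -0.08 over 6 genes, and proximal tubule markers one of -0.02 that reached 0.002 under other scalings. Collecting duct markers had a median of -0.43, with 3 of 4 lower and a summed signal of 15.4 in TG+STZ and 21.0 in WT+STZ. Slc26a4, Atp6v1g3 and Aqp2, transport genes of its cells, stood at -0.63, -0.44 and -0.43, and Slc4a1, another, at 0.22. The median was -0.11 for mesangium and smooth muscle, -0.13 for the distal convoluted tubule and -0.05 for the loop of Henle. Fibroblast markers were higher for 5 of 5, with a median of 0.53, or 0.17 under normexp, where Pdgfra was at -0.009. Of the fat cell genes, Cfd was at 4.82 ± 0.22, the highest difference of all measured genes. Adipoq and Plin1 were detected in TG+STZ alone, at least 13.9-fold and 4.17-fold higher there. The part of these cell types in the chemokine values was not tested.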

How the data were processed

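Signals were read from the deposited scanner tables of 2 Agilent 1-colour (Cy3) mouse expression arrays, 1 per group. Images were quantified by the authors with Agilent Feature Extraction, version 10.7.1.1 per the file headers and 10.3.1.1 per the submitters' processing notes, which gave each spot a processed intensity with background subtracted and trends within the array corrected. The value table held the same intensity at all 44397 spots of each array. Depth does not apply to arrays, and their number limits the precision.

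Each array was scaled by subtracting, on the log2 scale, the 75th percentile of its 43020 gene spots from every deposited intensity. Spots marked as outliers were left out (109 in TG+STZ, 114 in WT+STZ), and spots of a probe were averaged. Probes were named by accession through the RefSeq table of GRCm38.p6, and 26410 of 39426 matched. A gene was measured if a probe was well above background and unsaturated on both arrays, and its probes were averaged. Probe sequences and genome positions of probes are not used here. The members and gene lists were chosen with earlier results of these data known. The text names all members, their receptors and the 4 genes furthest from 0 in each other list, and further genes were chosen after their values were seen. Some genes that this rule names are not reported here. For a gene detected on 1 array, the bound divides its signal by whichever is larger on the other array, the probe's own signal or the lowest signal counted as detected. Bounds were not recomputed under the alternatives below.

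Alternatives were normexp background correction (offset 50, on spot medians), median centring, the percentile over detected probes, quantile normalization, loess (span 0.3), the value table, centring on spike-ins, the brightest probe of a gene, dim probes kept, a 1.5-fold threshold and a laxer detection flag. Normexp's offset pulls differences of dim genes toward 0. The steps were tested on simulated data. Software was limma 3.58.1 in R 4.3.3 and, in Python 3.11.15, pandas 2.3.3, numpy 2.4.6 and statsmodels 0.14.6.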

Additional observations from a re-analysis of the deposited data

How the results depend on the processing

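No paired analysis was possible because each group had 1 array and the labels carry no replicate numbers. Over 7 other scalings or backgrounds of the 11 chemokine probes, 75 of 77 recomputed differences moved by less than the software error. The other 2 were under normexp, Ccl3 at -0.45 and Ccl8 at 0.61. The signs of Ccl2, Ccl3, Ccl4, Ccl5, Ccl8, Cxcl10 and the brighter Cxcl9 probe held under all 7, and those of Ccl7, Cxcl1, Cx3cl1 and the dimmer Cxcl9 probe did not. The count of chemokines past 2-fold was 1, became 2 (Ccl2 and Ccl5) with the percentile taken over detected probes, and was 5 at 1.5-fold. The median of -0.17 lay between -0.23 and -0.15 over the other scalings, backgrounds and probe choices, and became -0.0083 or -0.34 when single genes were left out. Over all genes, 36 were past 2-fold higher and 29 lower under normexp, against 83 and 75 without it. The 10 genes were detected under the laxer flag as well. Ccl3, Ccl7 and other dim probes are limited by signal close to background. Ranges for the other lists were added after seeing the data, and none of their genes past 2-fold changed sign.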
